A study of Mus musculus with 2 samples.

Results

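The chemokine ligands of the mouse kidney were followed through the kidney cell types of 2 mice after renal ischemia. Members were chosen by symbol, as every gene named Ccl or Cxcl with a number, together with Cx3cl1, Xcl1, Pf4 and Ppbp, which gave 46 genes under 40 symbols of 32285 genes measured. Male C57BL/6 mice of 9 weeks underwent bilateral renal ischemia-reperfusion injury (IRI), in which both kidneys lose and then regain their blood flow, and kidney tissue was taken after 24 h. The control mouse received saline, and the treated mouse received JPI-289, an inhibitor of poly(ADP-ribose) polymerase (PARP), at 100 mg/kg into the peritoneum just before reperfusion. Each condition was 1 kidney library of single cells from 1 mouse, so there was no replicate, no test of the conditions was made, and a difference between conditions cannot be told apart from a difference between 2 mice, 2 dissociations or 2 libraries.

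Chemokines are small secreted proteins that guide leukocytes along a gradient by binding G protein-coupled receptors on them. Ligands of the CXC family that carry the ELR motif (Cxcl1, Cxcl2, Cxcl3, Cxcl5 and Ppbp) attract neutrophils through Cxcr2, whereas Ccl2, Ccl7 and Ccl12 attract monocytes through Ccr2. After renal ischemia, injured tubules, endothelium and arriving leukocytes are all known sources of these proteins, and many of their genes are switched on by nuclear factor kappaB or by interferon.

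The inducible neutrophil ligands are neighbours in the genome, and their promoters are shown because Cxcl2 gave the most unique molecular identifiers (UMIs, each counting 1 captured RNA molecule) of all ligands. The 7 genes from Cxcl5 to Cxcl2 lie at chr5:90759360-90905938, a stretch of 147 kb, and the Ccr2 ligands lie among the 6 genes from Ccl2 to Ccl1 at chr11:82035571-82305690, a stretch of 270 kb (GRCm38, GENCODE vM21). The sequences are the 250 bases before the RefSeq start of each gene (GRCm38.p6), written 5′ to 3′ as the gene reads, at chr5:90890995-90891244 (plus strand), chr5:90903649-90903898 (plus strand), chr5:90785851-90786100 (plus strand) and chr5:92348890-92349139 (minus strand). Capitals mark matches to a kappaB motif, GGAANTTCC, which reads the same on both strands.
Cxcl1: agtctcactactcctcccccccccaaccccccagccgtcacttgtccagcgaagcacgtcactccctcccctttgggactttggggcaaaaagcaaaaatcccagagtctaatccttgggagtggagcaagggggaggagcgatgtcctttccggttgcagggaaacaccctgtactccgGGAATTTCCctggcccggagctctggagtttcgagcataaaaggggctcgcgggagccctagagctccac
Cxcl2: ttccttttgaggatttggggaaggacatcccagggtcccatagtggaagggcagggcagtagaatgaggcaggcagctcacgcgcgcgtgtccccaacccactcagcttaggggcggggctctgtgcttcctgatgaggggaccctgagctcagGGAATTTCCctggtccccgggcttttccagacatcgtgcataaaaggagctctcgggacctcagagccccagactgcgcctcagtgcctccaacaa
Cxcl3: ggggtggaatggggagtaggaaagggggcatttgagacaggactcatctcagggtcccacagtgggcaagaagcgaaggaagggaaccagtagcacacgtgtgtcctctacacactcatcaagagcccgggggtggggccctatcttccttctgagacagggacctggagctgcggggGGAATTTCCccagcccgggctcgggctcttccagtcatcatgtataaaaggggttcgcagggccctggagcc
Cxcl10: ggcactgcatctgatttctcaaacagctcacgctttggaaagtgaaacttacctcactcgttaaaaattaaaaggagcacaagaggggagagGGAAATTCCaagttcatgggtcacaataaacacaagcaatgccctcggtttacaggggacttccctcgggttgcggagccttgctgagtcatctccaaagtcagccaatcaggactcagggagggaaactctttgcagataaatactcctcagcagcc
The match started 70, 96 and 72 bases before the gene start in Cxcl1, Cxcl2 and Cxcl3, with the same 9 letters in all 3, and 158 bases before it in Cxcl10, the interferon-induced ligand on the same chromosome. Over the 300 bases from 250 before to 50 after the start, 305 of 32851 mouse promoters held the motif (0.928%). Of the 40 ligand symbols 29 had a promoter entry, and 6 of these held the motif, the others being Ccl1 and Ccl12. A match is a description of these letters and not a binding site.

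The control library held 38328760 UMIs and the JPI-289 library 35548396, of which 3760 and 5039 barcodes were called as cells with a median of 2049 and 1866 UMIs. The called cells shared 23 barcodes between the libraries, where 25.7 were expected by chance from the size of the barcode list. Cells were clustered without any chemokine ligand or receptor, and clusters were named "X-like" from lists of marker genes. The classes were proximal tubule (PT)-like, thick ascending limb (TAL)-like, distal convoluted and connecting tubule (DCT-CNT)-like, principal (CD-PC)-like and intercalated (CD-IC)-like cells of the collecting duct, endothelial cell (EC)-like, stroma-like, neutrophil-like, resident macrophage-like, monocyte-like and red blood cell (RBC)-like cells, 11 in all with at least 50 cells in each library. Neutrophil-like cells, led by Retnlg, S100a9 and S100a8, were 196 of the control cells (5.21%) and 653 of the JPI-289 cells (12.96%). PT-like cells were 1809 (48.1%) and 1646 (32.7%). Levels are given as CPM, the UMIs of a ligand per 1000000 UMIs of the class in that library. Free RNA, read from barcodes of under 100 UMIs, held 365 and 771 CPM of Cxcl2, the most of any ligand. These barcodes had only 441021 and 343770 UMIs in all. The larger set of uncalled barcodes of under 500 UMIs held 106 and 186 CPM of Cxcl2. Some levels under that of free RNA therefore lay above that of this larger set. RBC-like cells, which should make no chemokine, held 42.3 and 75.0 CPM over all ligands. From markers of neutrophils, RBC and EC, free RNA was estimated at 9.20% and 3.40% of the UMIs of PT-like cells. Where a class lies under the free RNA level of a ligand, its UMIs may be background in part or in full.

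Ligand RNA was concentrated in leukocytes. All ligands together made up 40151 CPM in control neutrophil-like cells, 20808 in monocyte-like cells and 16816 in resident macrophage-like cells, against 1617 in stroma-like cells, 1582 in EC-like cells and 319 in PT-like cells. Of the 46 genes, 35 had a UMI in a called cell, 26 had at least 20 over both libraries and 22 at least 100, while 9 had between 1 and 19 and 11 had none. Among the 22 with at least 100 and within the 11 classes, which leave out the small T- and NK-cell-like cluster, a leukocyte class held the highest level for 13 in the control library and for 15 in the JPI-289 library, and the class with the highest level was the same in both libraries for 17. Within these classes the ligands whose highest level lay outside leukocytes in both libraries were Cxcl12, Cxcl14 and Cx3cl1 (stroma-like), Cxcl10 (TAL-like), Ccl21a (EC-like), Ccl27a (CD-PC-like in the control and stroma-like in the treated library) and Ccl5 (DCT-CNT-like, where 51 of the 53 control UMIs came from 1 cell). The T- and NK-cell-like cluster held more Ccl5 than any of the 11 classes, at 582 CPM from 8 UMIs in the control library and 965 CPM from 221 UMIs with JPI-289. Its name was close, with a score of 5.25 for T and NK cells and 5.21 for B cells. The JPI-289 cells in it had 156 UMIs of T- and NK-cell markers and 112 of B-cell markers.

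**Figure D1:**
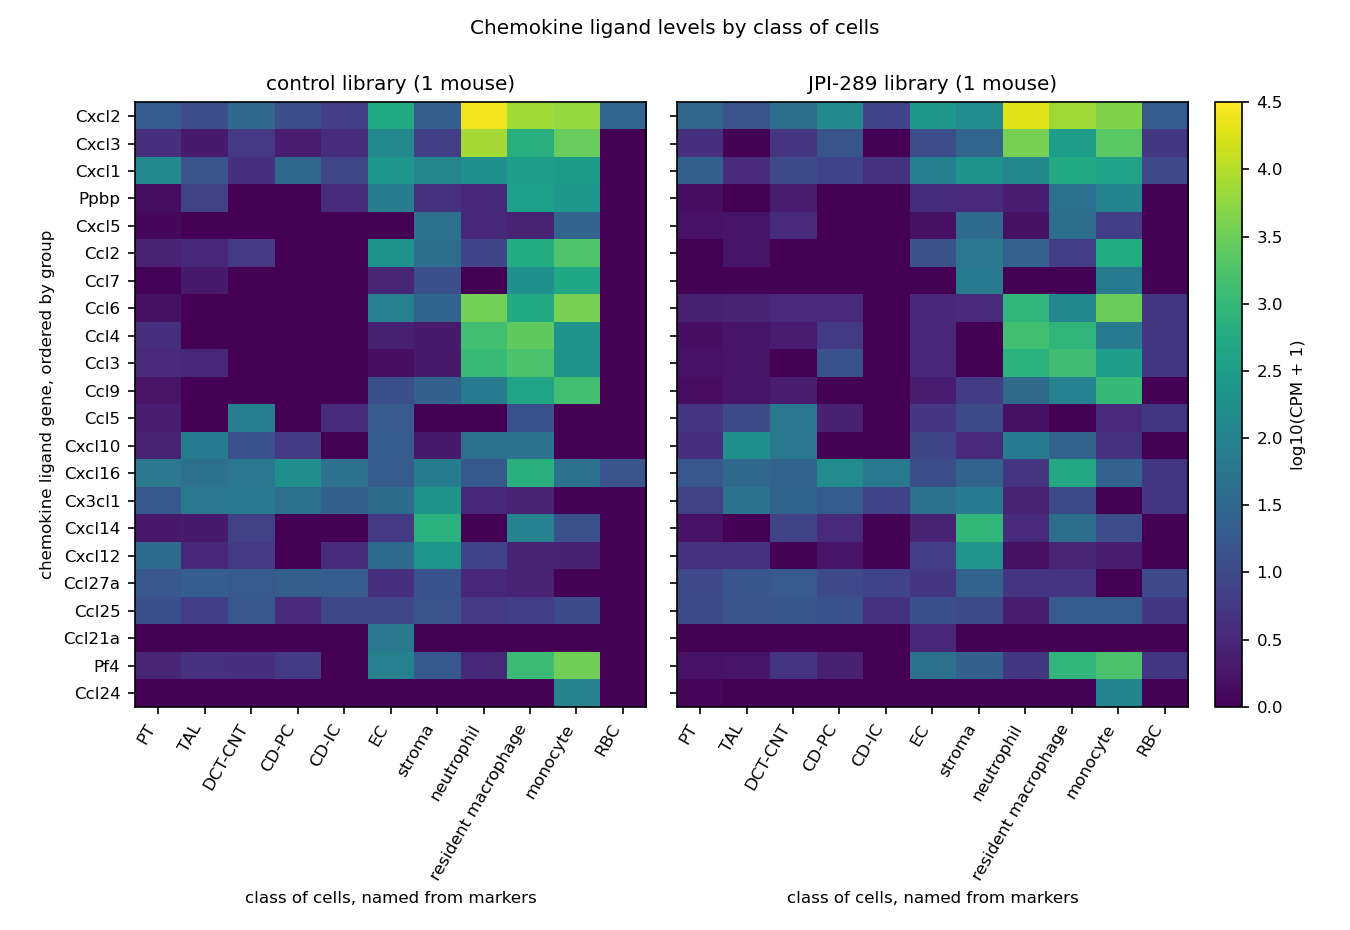
Level of the 22 ligands with at least 100 UMIs in called cells, as log10 of CPM plus 1, in each of 11 classes of cells (columns) of the control library (left) and the JPI-289 library (right). The brightest squares are Cxcl2 in neutrophil-like cells, at 25905 and 19926 CPM, and stroma-like cells stand out for Cxcl14 and Cxcl12.

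Ligand levels within a class were more often lower than higher with JPI-289. A pair of a ligand and a class entered this count if it had at least 20 UMIs over both libraries, and was counted where the levels differed at least 2-fold. Of 103 such pairs in the 11 classes, 46 were lower with JPI-289 (44.7%), where 14.8% of all gene and class pairs were lower, and 11 were higher (10.7%), where 9.24% of all were higher. Lower pairs were 12 of 15 in EC-like cells (18.4% of all genes tested there), 9 of 17 in resident macrophage-like cells (17.2%), 7 of 13 in PT-like cells (23.8%) and 7 of 16 in monocyte-like cells (12.6%). They were 3 of 5 in CD-PC-like (13.2%), 4 of 14 in stroma-like (13.9%), 2 of 9 in neutrophil-like (10.3%), 2 of 7 in DCT-CNT-like (9.93%), 0 of 6 in TAL-like (10.9%) and 0 of 1 in CD-IC-like cells (9.78%), and no ligand reached 20 UMIs in RBC-like cells. Several of the 12 in EC-like cells rested on few cells. Cxcl3, Ppbp and Pf4 were no longer lower once cells with leukocyte markers were left out. Ccl21a came from 4 control cells, and most control UMIs of Ccl5 and of Cxcl10 from 1 cell. These ligands also enter the EC-like median given below. Higher pairs were 4 of 14 in stroma-like cells (11.5% of all genes), 2 of 6 in TAL-like (7.95%), 1 each in PT-like (9.17%), DCT-CNT-like (7.48%), CD-PC-like (9.78%), neutrophil-like (11.6%) and resident macrophage-like cells (11%), and 0 in EC-like (5.26%), monocyte-like (10.4%) and CD-IC-like cells (9.97%). The median of the log2 ratios, in which a negative value means a lower level with JPI-289, was -2.00 over the ligands of EC-like cells (-0.17 over all genes tested there), -1.42 in PT-like cells (-0.20), -1.06 in resident macrophage-like cells (-0.03), -0.69 in monocyte-like cells (0.04), -0.48 in neutrophil-like cells (0.10) and 0.45 in stroma-like cells (0.00).

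Over all called cells, whose classes made up different shares of the 2 libraries, the direction was different for several ligands. All ligands together were at 2925 CPM in the control library and 3711 with JPI-289, a log2 ratio of 0.34. In a calculation added once the data had been seen, each class of the JPI-289 library was weighted by the share of UMIs that it held in the control, and the sum was 1933 CPM and the log2 ratio -0.60. The log2 ratio went from 0.89 to -0.32 for Cxcl2, from 0.37 to -0.83 for Cxcl3, from 0.46 to -0.23 for Ccl3 and from 0.25 to -0.93 for Ccl4. These are 4 ligands with high levels in neutrophil-like cells. It stayed on its side of 0 for Cxcl1 (-0.87 and -0.93), Ccl2 (-1.87 and -2.08), Cxcl16 (-0.96 and -0.97), Cxcl12 (-2.12 and -1.25) and Cxcl10 (1.29 and 0.79). Over all called cells 8 of 26 ligands were at least 2-fold lower (21.1% of all genes) and 3 were higher (5.69%), the latter being Cxcl10, Ccl5 and Ccl11. In brackets from here on stand exact 95% Poisson intervals for levels and exact 95% binomial intervals for log2 ratios. These intervals cover counting error only, and levels are not divided by gene length because each UMI is 1 molecule.

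Of the ELR-CXC ligands, which act on neutrophils, Cxcl2 and Cxcl3 had their highest levels among the 11 classes in neutrophil-like cells. Cxcl1 was highest in resident macrophage-like cells of both libraries, and Cxcl5 and Ppbp were likewise highest outside neutrophil-like cells. The summed level of the ELR-CXC ligands was 33979 CPM in control neutrophil-like cells and 23802 with JPI-289, a log2 ratio of -0.51 (-0.54 to -0.49). Cxcl2 gave most of it: neutrophil-like cells held 11268 control and 32198 JPI-289 UMIs, or 25905 CPM (25428 to 26387) and 19926 CPM (19709 to 20145). Nearly all neutrophil-like cells had a UMI of it, 192 of 196 and 625 of 653. The log2 ratio was -0.38 (-0.41 to -0.35), less than 2-fold, while the part of all Cxcl2 UMIs that lay in neutrophil-like cells was 54.8% and 79.0%. Cxcl3, the close relative of Cxcl2, was at 7890 (7628 to 8158) and 3759 (3665 to 3855) CPM in neutrophil-like cells, a log2 ratio of -1.07 (-1.13 to -1.01), or -0.90 with each cell weighted equally.

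Resident macrophage-like cells held Cxcl2 at comparable levels in both libraries, while monocyte-like cells held less with JPI-289, though under 2-fold. Cxcl2 was at 7382 and 7112 CPM in resident macrophage-like cells, with a log2 ratio of -0.05 (-0.12 to 0.01) whose interval included 0. In monocyte-like cells it was at 6041 and 4416, a log2 ratio of -0.45 (-0.52 to -0.39). Cxcl3 in resident macrophage-like cells was at 674 and 323, a log2 ratio of -1.06 (-1.33 to -0.80), and in monocyte-like cells at 2832 and 2223. In resident macrophage-like cells few cells carried Cxcl3, 17 of 131 control and 24 of 170 JPI-289 cells. There 1 control cell held 111 of the 369 control UMIs and another 90, so the lower level rested on few control cells. The level of Cxcl1 was higher with JPI-289 in both classes, though under 2-fold and on few cells. It was at 329 (282 to 380) and 565 (503 to 633) in resident macrophage-like cells and at 279 (240 to 322) and 393 (352 to 438) in monocyte-like cells. Cxcl1 UMIs lay in 26 of 131 and 28 of 170 resident macrophage-like cells and in 11 of 69 and 19 of 131 monocyte-like cells. The share of cells with Cxcl1 was thus not higher with JPI-289 in either class. In control monocyte-like cells, the 5 cells with most Cxcl1 held 91.7% of its UMIs. Ppbp, which is known from platelets, was at 345 and 43.2 in resident macrophage-like cells and at 246 and 108 in monocyte-like cells. Few cells carried it: 1 cell held 114 of the 189 control UMIs in resident macrophage-like cells and another 47, and in monocyte-like cells 1 cell held 66 of 160 control and 44 of 91 JPI-289 UMIs. Cxcl5 had only 62 and 52 UMIs over all called cells, 39 and 14 of them in stroma-like cells, and in JPI-289 resident macrophage-like cells 21 of its 22 UMIs came from 1 cell. Cxcl15 had 0 and 3 UMIs.

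**Figure D2:**
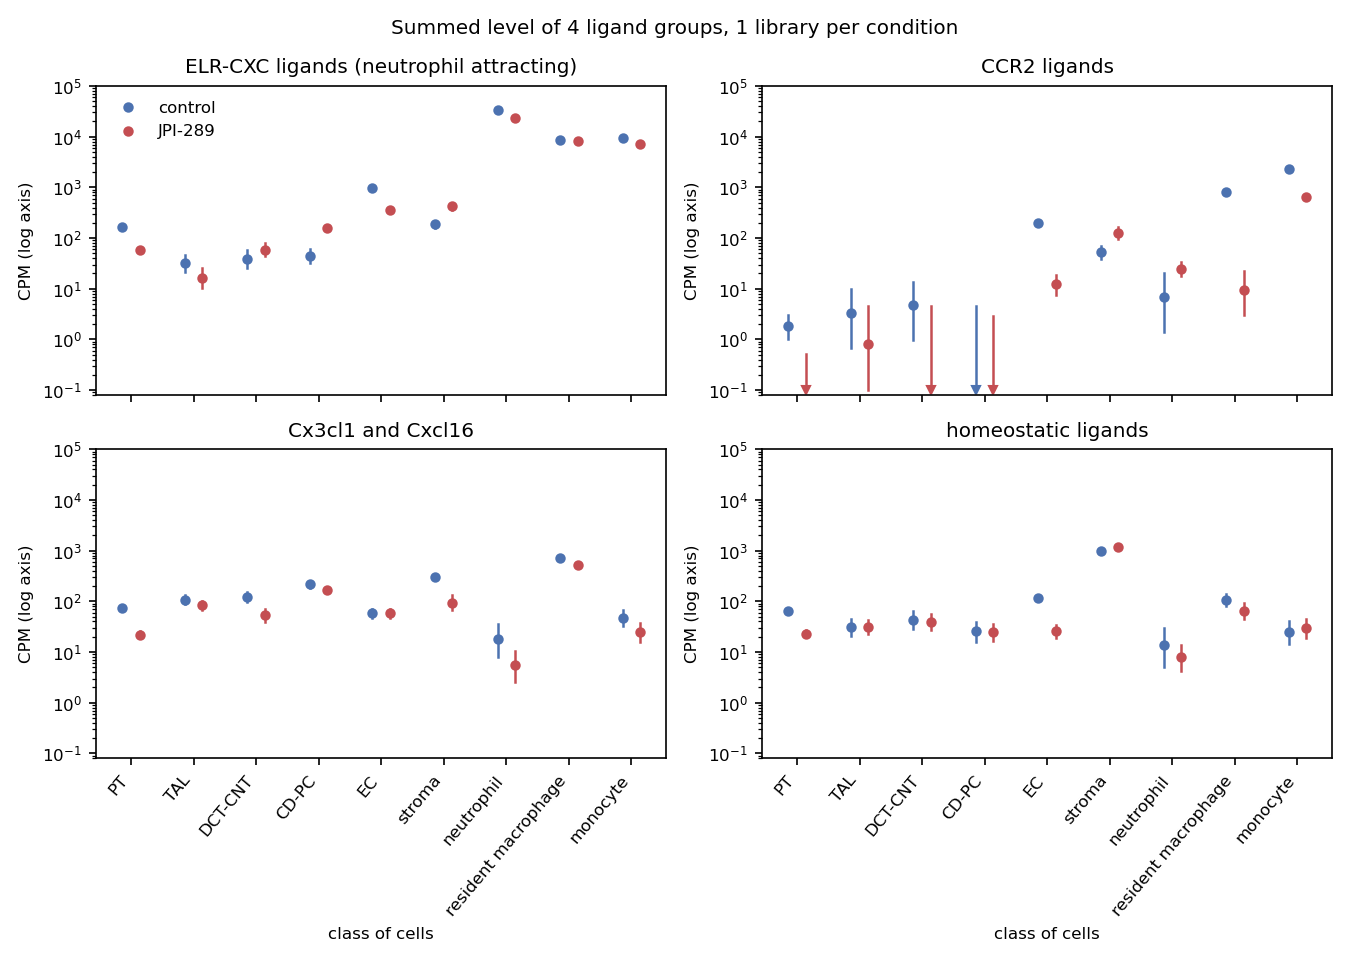
Summed level of 4 groups of ligands in CPM (log axis) in 9 classes of cells, with control in blue, JPI-289 in red and exact 95% Poisson intervals as bars. A downward triangle near the foot of the axis marks a sum of 0 UMIs, and the bar above it ends at the upper limit of its interval. The ELR-CXC sum lies between 7146 and 33979 in the 3 myeloid classes of both libraries, while the CCR2 ligand sum of resident macrophage-like cells was 804 in the control library and 9.39 with JPI-289.

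In PT-like cells the neutrophil ligand was Cxcl1, and it was lower with JPI-289. There were 1166 UMIs in 265 of 1809 control cells, or 143 CPM (135 to 152), and 175 UMIs in 77 of 1646 JPI-289 cells, or 23.9 CPM (20.5 to 27.8). The log2 ratio was -2.58 (-2.82 to -2.35), and PT-like cells held 48.7% of all Cxcl1 UMIs in the control library and 12.5% with JPI-289. When each cell was thinned to 1000 UMIs, 8.77% (7.31 to 10.4) of 1346 control cells and 1.498% (0.875 to 2.39) of 1135 JPI-289 cells had a Cxcl1 UMI, whereas 463 and 511 shallower cells were left out. Without thinning, 14.6% and 4.68% of PT-like cells had it, and their median depths were 2231 and 1840 UMIs. After the same thinning, 0 of 56 and 0 of 93 RBC-like cells had Cxcl1, which allows shares of up to 5.36% and 3.23%, while without thinning 0% and 1.63% of them had it (median depths of 1520 and 1531 UMIs). The free RNA level was 63.5 and 32.0 CPM, below the control PT-like level and above the JPI-289 one. Cxcl2 in PT-like cells, at 18.1 and 29.8, lay under its free RNA level of 365 and 771 in both libraries.

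The PT-like cells of the libraries fell into nearly separate clusters, and a cluster mostly of 1 library may be that library rather than a state of the cells. Control cells were in clusters of 791, 600, 236 and 162 control cells with at most 8 JPI-289 cells each, and JPI-289 cells in clusters of 890, 383 and 356 with at most 20 control cells each. Cxcl1 was uneven among them. The control cluster of 236 cells, led by Slc5a12, Gm26917 and Pik3c2g, held 602 of the 1166 UMIs, at 777 CPM, while that of 791 cells was at 14.6 and the JPI-289 clusters at 11.5, 21.0 and 32.9. An unnamed cluster of 257 JPI-289 cells, led by Snhg11, Neat1, Gm26917 and Malat1, held 137 Cxcl1 UMIs at 168 CPM. Gm26917 and Snhg11 were also among the leading genes of the control cluster of 236 cells. That cluster counted as PT-like, whereas the JPI-289 one did not, because injured PT markers led it without PT markers next. The 2 libraries were thus named unequally here. Without the control cluster of 236 cells the log2 ratio was -1.68, and with the unnamed cluster counted as PT-like it was -1.94. For the ELR-CXC sum of PT-like cells, -1.51 (-1.67 to -1.35), the same values were -0.68 and -1.11, the former under 2-fold. Markers moved in the same comparison: the 16 PT markers together were at 24052 and 13726 CPM and the 5 markers of injured PT at 870 and 7946, with Krt20 and Plin2 at log2 ratios of 4.20 and 3.58 and Hbegf at -1.61. Their part in the ligand differences was not tested.

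EC-like cells had lower ELR-CXC ligands with JPI-289, but few cells carried them. Cxcl2 was at 541 (509 to 575) and 255 (231 to 280) CPM, with UMIs in 42 of 500 and 48 of 566 cells, and Cxcl1 at 231 (210 to 253) and 86.5 (73.1 to 102), in 48 and 35 cells. In the control library 1 cell held 246 of the 454 Cxcl1 UMIs and 495 of the 1064 Cxcl2 UMIs, with 83 UMIs of EC markers and 0 of leukocyte markers. Without the cell with most UMIs in each library the log2 ratio of Cxcl1 was -0.77 in place of -1.41, and that of Cxcl2 -1.28 in place of -1.09, which was -0.89 in barcodes past the first calling step. Another 2 control cells carried 167 and 391 UMIs of leukocyte markers beside 184 and 192 of EC markers, and they held 76 and 180 of the 259 Cxcl3 UMIs of control EC-like cells. Leaving out cells with at least 5 leukocyte marker UMIs, 2 in the control library and 5 with JPI-289, turned the log2 ratio of Cxcl3 from -3.61 to 1.09, of Ppbp from -4.62 to 0.20 and of Pf4 from -1.02 to 0.74. For Ccl6 it was -5.09 and then -2.46.

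In stroma-like and CD-PC-like cells the ELR-CXC sum was higher in the JPI-289 library. In stroma-like cells the sum was 189 and 427 CPM, a log2 ratio of 1.18 (0.86 to 1.501), from Cxcl1 at 112 and 207 and Cxcl2 at 22.0 and 154. The control value of Cxcl2 rested on 19 UMIs, and both values lay under the free RNA level. In CD-PC-like cells Cxcl2 had 9 UMIs in the control library and 173 with JPI-289, at 10.9 and 138 CPM, likewise under the free RNA level. The log2 ratio of 3.59 was 0.47, under 2-fold, in barcodes past the UMI cutoff of the first calling step. Of the JPI-289 cells, 281 with under 2000 UMIs held 159 of these 173, and 155 of those 281 had a UMI of S100a8, a neutrophil gene that was at 587 CPM in them and at 0 in the 14 control cells of that depth. In cells of 2000 UMIs or more, Cxcl2 was at 4.95 (54 control cells) and 16.4 (88 JPI-289 cells). Summed neutrophil markers were at 251 and 712 CPM in stroma-like cells and at 9.70 and 594 in CD-PC-like cells, and their part in the Cxcl2 values was not tested.

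The CCR2 ligands, which call monocytes, were lower with JPI-289 in the 3 classes that held most of them in the control library. These were monocyte-like, resident macrophage-like and EC-like cells. Their sum was higher with JPI-289 in stroma-like cells, on 45 and 50 UMIs, a log2 ratio of 1.30 (0.69 to 1.91). It was also higher in neutrophil-like cells, on 3 and 40 UMIs, a log2 ratio of 1.64 (0.19 to 4.18). Over all called cells Ccl2, Ccl7 and Ccl12 together had 2469 control and 670 JPI-289 UMIs, or 148 and 37.5 CPM, a log2 ratio of -1.98 (-2.10 to -1.85). Monocyte-like cells, led by Arg1, Fn1 and Lyz2, were the main source. They held Ccl2 at 1800 (1698 to 1906) and 582 (531 to 636) CPM, with UMIs in 36 of 69 and 51 of 131 cells, a log2 ratio of -1.63 (-1.78 to -1.48). Ccl7 in the same cells was at 496 and 72.4, a log2 ratio of -2.77, and Ccl12 had 35 and 2 UMIs.

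Resident macrophage-like cells, led by H2-Aa, H2-Eb1 and Cd74, had Ccl2 in the control library and almost none with JPI-289. There were 320 UMIs in 21 of 131 control cells, at 584 CPM, and 3 UMIs in 2 of 170 JPI-289 cells, at 5.64 CPM, a log2 ratio of -6.48 (-8.98 to -5.14). Ccl7 had 97 and 0 UMIs there and was at least 31.4-fold lower, taking 3 UMIs as the most that a count of 0 allows. Ccl12 had 23 and 2 UMIs. In the same cells Cxcl2 was at similar levels in both libraries. The level of Cxcl1 there was higher with JPI-289, though the share of cells with it was not. The 8 markers of resident macrophages were together at 14761 and 7345 CPM in this class, and their part in the Ccl2 values was not tested.

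In EC-like cells Ccl2 was lower with JPI-289 as well, and 1 cell held less of it than of the neutrophil ligands in the control library (21.1% of its UMIs, against 54.2% for Cxcl1 and 46.5% for Cxcl2). Ccl2 was at 195 (176 to 215) CPM in the control library, with UMIs in 38 of 500 cells and at most 81 in any of them. With JPI-289 it was at 12.3 (7.59 to 18.8), in 12 of 566 cells and under the free RNA level of 20.4. In that free RNA all CCR2 ligands together had only 8 UMIs. JPI-289 barcodes of under 500 UMIs held Ccl2 at 5.91 CPM, from 89 UMIs, below the EC-like level. The log2 ratio of Ccl2 in EC-like cells, -3.96 (-4.70 to -3.36), was -4.0 without the cell with most UMIs in each library. It was -3.81 without the cells that carried leukocyte markers. The EC-like cells, too, came from different clusters, 203 control and 35 JPI-289 cells in one led by Fam167b, Sox18 and Plvap, 2 and 183 in another led by Igfbp3, Nmb and Col13a1, and 295 and 348 in a shared one led by Apln, Esm1 and Edn1. Stroma-like cells had Ccl2 at 40.5 (28.2 to 56.3) and 58.9 (37.3 to 88.3), with overlapping intervals, and 10 and 27 Ccl7 UMIs, of which 25 came from 1 JPI-289 cell. Neutrophil-like cells had 3 and 40 UMIs of Ccl2, at 6.90 and 24.8 CPM. PT-like cells had hardly any, with the sum of CCR2 ligands at 1.84 CPM in the control library and at 0 with JPI-289.

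**Figure D3:**
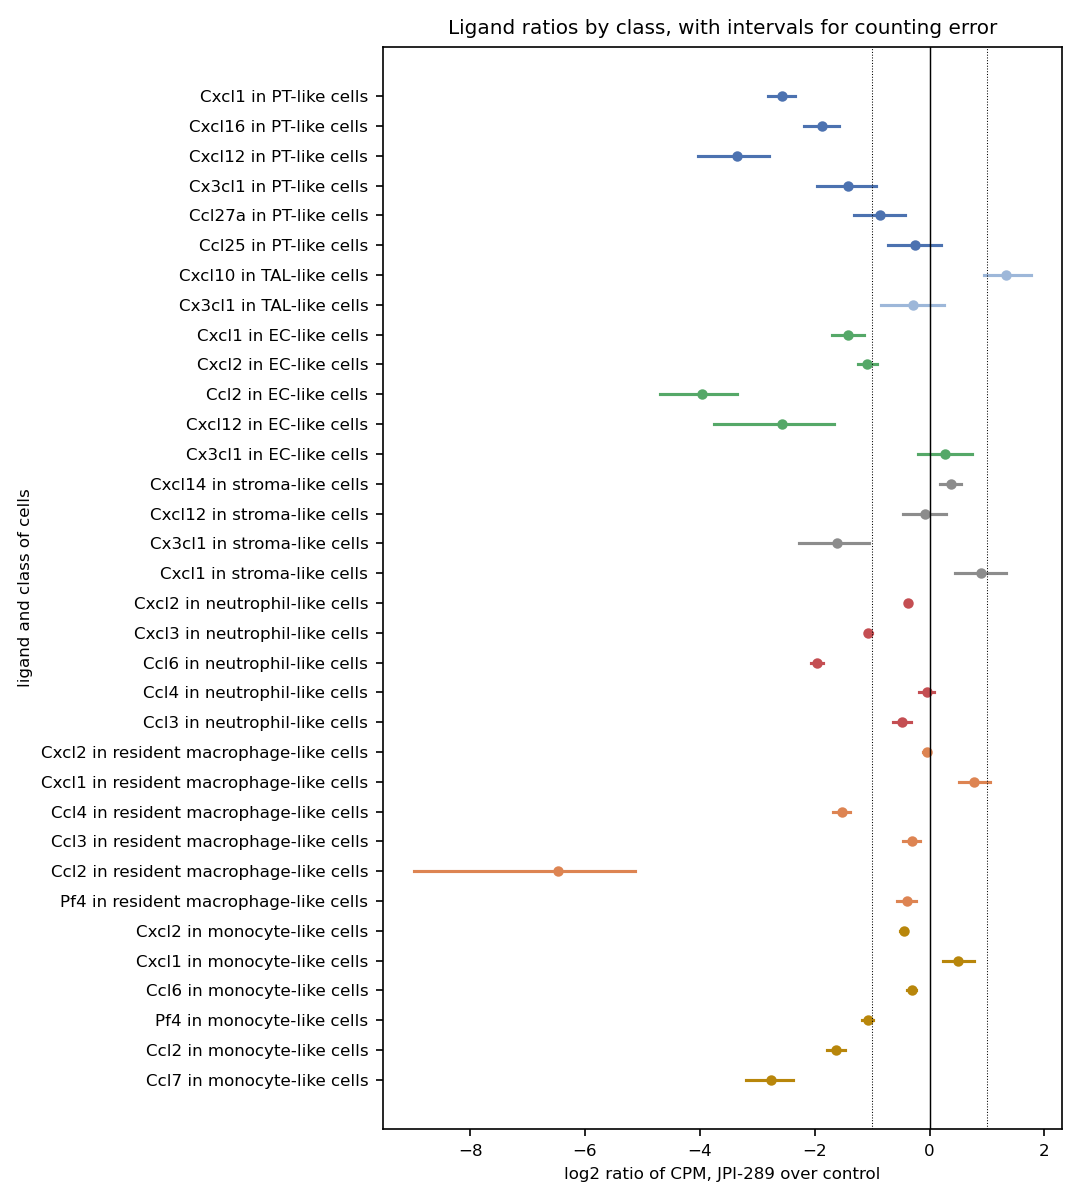
Log2 ratio of CPM, JPI-289 over control, for 34 pairs of a ligand and a class of cells (points, coloured by class) with exact 95% binomial intervals for counting error (bars). Dotted lines mark 2-fold. The pairs were chosen and leave out most of the 11 pairs that were at least 2-fold higher, such as Cxcl2 in CD-PC-like and stroma-like cells. Ccl2 lies to the left of -1 in EC-like, resident macrophage-like and monocyte-like cells. Among the pairs drawn, Cxcl10 in TAL-like cells is the only point to the right of 1.

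The CC ligands Ccl3, Ccl4, Ccl5, Ccl6 and Ccl9, which attract monocytes, macrophages and T cells, differed by class. Ccl4 was at 2517 (2385 to 2653) CPM in control resident macrophage-like cells, in 62 of 131 cells, and at 870 (792 to 953) with JPI-289, in 29 of 170 cells, a log2 ratio of -1.53 (-1.69 to -1.38). In neutrophil-like cells it was at 1398 and 1349, with a log2 ratio of -0.05 (-0.18 to 0.08) whose interval included 0. Its main source was resident macrophage-like cells in the control library (64.0% of UMIs) and neutrophil-like cells with JPI-289 (80.0%). Ccl3 was at 1664 and 1337 in resident macrophage-like cells, at 1055 and 759 in neutrophil-like cells and at 205 and 334 in monocyte-like cells, less than 2-fold apart in each. Ccl6 was at 3566 (3390 to 3748) and 912 (866 to 960) in neutrophil-like cells, a log2 ratio of -1.97 (-2.07 to -1.86), and at 557 and 115 in resident macrophage-like cells, but at 3702 and 2982 in monocyte-like cells. Ccl9 followed the macrophage classes in the same way, at 431 and 97.7 in resident macrophage-like cells and at 1367 and 1039 in monocyte-like cells. Ccl5, a ligand made by lymphocytes, had most of its JPI-289 UMIs, 221 of 332, in a cluster of T- and NK-cell-like cells that held 6 control and 98 JPI-289 cells.

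Cxcl10, an interferon-induced ligand that attracts activated T cells through Cxcr3, was higher with JPI-289 in TAL-like cells. TAL-like cells had 65 UMIs in 11 of 277 control cells and 221 in 38 of 391 JPI-289 cells, at 72.1 (55.6 to 91.9) and 183 (160 to 209) CPM. The log2 ratio was 1.34 (0.94 to 1.77). In the JPI-289 library 81 of the 221 UMIs came from 1 cell. Without the cell with most UMIs in each library, the control library included, the log2 ratio was 1.46. After thinning, 1.09% (0.133 to 3.89) of 183 and 6.38% (3.83 to 9.90) of 282 TAL-like cells had Cxcl10, and 0 of 56 and 0 of 93 RBC-like cells. Without thinning, 3.97% and 9.72% of TAL-like cells had it, and their median depths were 1542 and 1759 UMIs. DCT-CNT-like cells had 8 and 50 UMIs, 39 of the latter in 1 cell, and neutrophil-like cells had 19 and 112, at 43.7 and 69.3 CPM with overlapping intervals. EC-like cells had 36 and 13 UMIs, 24 of the former in 1 cell. Cxcl9, another ligand of Cxcr3, had no UMI in a called cell of either library.

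Cx3cl1 and Cxcl16, ligands made as membrane proteins that can also be shed, were lower in the PT-like, DCT-CNT-like and stroma-like cells of the JPI-289 library, though several of these levels lay under that of free RNA. The free RNA level of Cxcl16 was 68.0 and 29.1 CPM and that of Cx3cl1 22.7 and 26.2, from 30 UMIs or fewer each. Cxcl16 in PT-like cells was at 58.9 (53.7 to 64.4) CPM in the control library, in 335 of 1809 cells with at most 6 UMIs in any cell, and at 16.0 (13.2 to 19.2) with JPI-289, in 99 of 1646 cells. The log2 ratio was -1.87 (-2.18 to -1.58), and both levels lay under that of free RNA. Barcodes of under 500 UMIs held 55.4 and 20.2 CPM, below the control PT-like level and above the JPI-289 one. Under 14 alternatives, free RNA subtraction among them, this ratio was between -1.96 and -1.75. How much of either level came from free RNA was not tested. Its highest level was in resident macrophage-like cells, at 710 (642 to 785) and 522 (463 to 587), followed by CD-PC-like cells at 172 (145 to 203) and 149 (129 to 172), whose intervals overlapped. Cx3cl1 was highest in stroma-like cells, at 215 (185 to 248) and 69.1 (45.5 to 101), a log2 ratio of -1.62 (-2.28 to -1.05). It was at 16.2 and 6.02 in PT-like cells, likewise under free RNA in both libraries. In EC-like cells, at 38.7 and 46.7, and in TAL-like cells, at 62.1 and 50.6, the intervals of the log2 ratios included 0.

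Along the rest of the nephron the ligands were few, and most came from the same small set of genes. In TAL-like cells Cxcl16 was at 45.5 and 32.3 CPM, Ccl27a at 21.1 and 14.9 and Cxcl2 at 11.1 and 13.3, with intervals of the log2 ratios that included 0. Ccl25 had 5 and 16 UMIs there, each in a separate cell, and although this was past 2-fold its interval (-0.26 to 3.06) also included 0. In DCT-CNT-like cells both membrane-bound ligands were lower with JPI-289. Cx3cl1 was at 65.5 and 27.0 CPM, a log2 ratio of -1.26 (-2.09 to -0.50). Cxcl16 was at 57.7 and 25.8, a log2 ratio of -1.15 (-2.01 to -0.35), where both Cxcl16 levels lay under free RNA. Both DCT-CNT-like levels of Cxcl16 were above the 55.4 and 20.2 CPM of barcodes of under 500 UMIs. Cxcl2, Ccl27a and Ccl25 had between 10 and 34 UMIs in either library in these cells and differed less than 2-fold. In CD-PC-like cells Cx3cl1 was at 43.7 and 19.2 CPM and Cxcl1 at 32.7 and 7.19, with log2 ratios of -1.18 (-2.00 to -0.40) and -2.14 (-3.46 to -1.06). Both Cxcl1 levels, and the Cx3cl1 level with JPI-289, lay under free RNA. This Cx3cl1 level was above the 10.2 CPM of JPI-289 barcodes of under 500 UMIs. The 68 control CD-PC-like cells had a median of 8752 UMIs and the 369 JPI-289 cells one of 1534. The only ligand that reached 20 UMIs in CD-IC-like cells was Cxcl16, at 46.2 and 66.0 CPM. In stroma-like cells Cxcl16 was at 81.0 and 25.6 CPM, a log2 ratio of -1.60 (-2.78 to -0.70). The latter level lay under free RNA but above the 20.2 CPM of JPI-289 barcodes of under 500 UMIs.

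Among the ligands that healthy tissue makes steadily, Cxcl14 and Cxcl12 had their highest levels in stroma-like cells and differed less than 2-fold there. Cxcl14 was at 732 (676 to 792) and 942 (848 to 1043) CPM in stroma-like cells, a log2 ratio of 0.36 (0.17 to 0.55), and these cells held 88.2% and 86.0% of its UMIs. Cxcl12, which retains and guides leukocytes through Cxcr4, was at 233 (201 to 267) and 220 (176 to 272) in stroma-like cells, a log2 ratio of -0.07 (-0.46 to 0.29). In PT-like cells, however, Cxcl12 had 291 UMIs in 200 of 1809 control cells and 25 UMIs in 21 of 1646 JPI-289 cells, at 35.8 (31.8 to 40.1) and 3.42 (2.21 to 5.05) CPM, a log2 ratio of -3.36 (-4.04 to -2.80). After thinning the shares of cells with Cxcl12 were 3.86% and 0.264%. Unthinned they were 11.1% and 1.28%, where RBC-like cells had 0% in both libraries. The RBC-like cells were only 76 and 123 in number and shallower in the median, so their 0% sets no low background level. PT-like cells held 50.4% of the Cxcl12 UMIs of called control cells and stroma-like cells 34.8%, against 17.6% and 60.6% with JPI-289. Barcodes of under 500 UMIs, which were not called as cells, had 620 and 94 Cxcl12 UMIs, at 35.5 and 6.24 CPM, so that the level outside cells was close to that of PT-like cells in the control library and above it with JPI-289. In free RNA, from 12 and 5 UMIs, it was 27.2 and 14.5 CPM, below and above the PT-like level. The log2 ratio of Cxcl12 in PT-like cells was between -4.41 and -3.06 under 14 alternatives, free RNA subtraction among them. The part of RNA from outside cells in this difference was not tested. EC-like cells had 71 and 10 Cxcl12 UMIs. Ccl27a, whose symbol has 3 genes so that its reads may be shared with near copies, was at 16.0 and 8.75 in PT-like cells, which held 58.3% and 43.8% of its UMIs, and at 12.7 and 25.6 in stroma-like cells, from 11 and 10 UMIs. Ccl25, a ligand of Ccr9, was at 11.7 and 9.71 in PT-like cells, under its free RNA level of 13.6 and 14.5. Both PT-like levels were above the 5.38 and 6.04 CPM of Ccl25 in barcodes of under 500 UMIs. Ccl21a, the ligand of Ccr7 that lymphatic endothelium makes, had 122 and 4 UMIs in EC-like cells, from 4 and 1 cells, and is likewise a symbol of more than 1 gene.

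**Figure D4:**
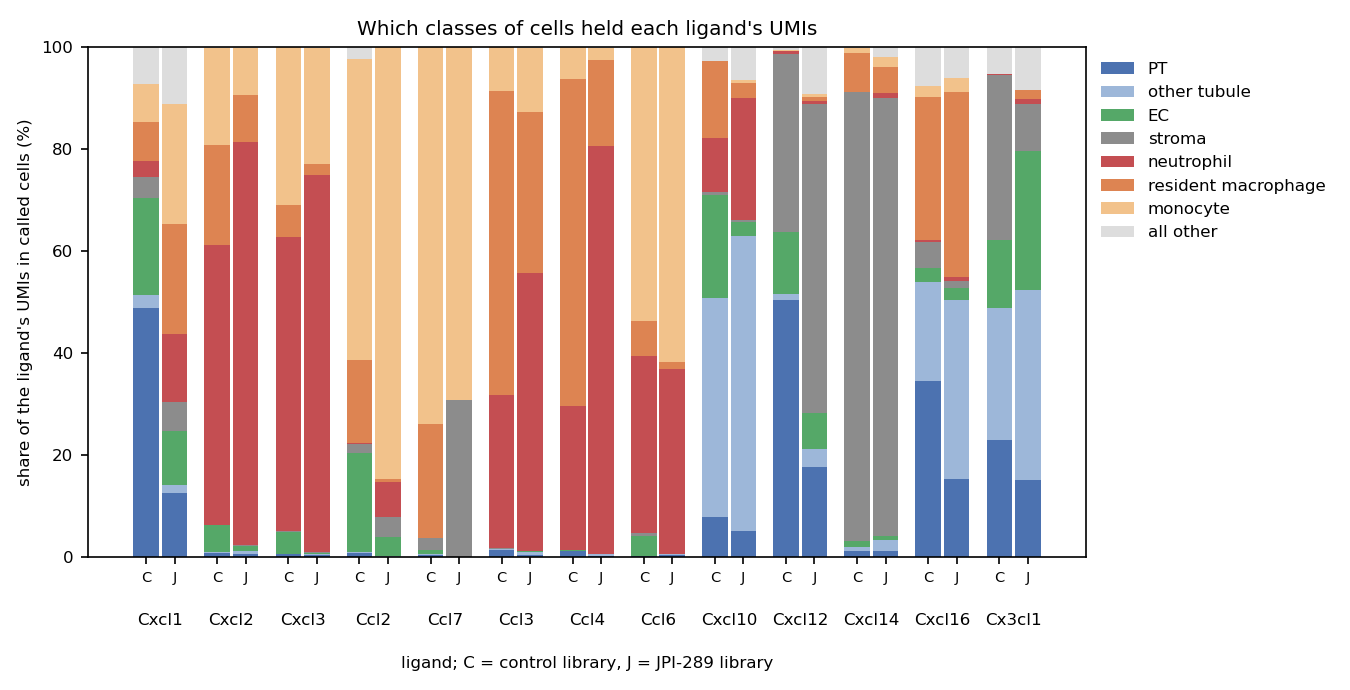
Share of each ligand's UMIs in called cells (percent of the library's UMIs of that ligand) held by each class of cells, for 13 ligands in the control (C) and JPI-289 (J) libraries. PT-like cells held 48.7% of Cxcl1 UMIs in the control library and 12.5% with JPI-289, and neutrophil-like cells held 54.8% and 79.0% of Cxcl2 UMIs.

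Pf4, stored in platelet granules, was outside these groups and was abundant in monocyte-like cells, at 3376 (3236 to 3520) and 1597 (1513 to 1685) CPM, a log2 ratio of -1.08 (-1.18 to -0.98), or -0.82 with each cell weighted equally. It was present in 28 of 69 and 44 of 131 of these cells, and in resident macrophage-like cells it was at 1214 and 920. Ccl24, which attracts eosinophils, was found mostly in monocyte-like cells, which had 66 of 66 control and 90 of 91 JPI-289 UMIs, at 102 and 107 CPM. The related Ccl11 had 1 and 22 UMIs in called cells. The 9 genes with 1 to 19 UMIs were Ccl20, Xcl1, 2 genes named Ccl19, Cxcl13, Ccl22, Ccl8, Ccl28 and Cxcl15, and Ccl17 and Cxcl17 had 24 and 41 UMIs over both libraries.

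Of 23 genes for the receptors that read these ligands, 10 had at least 50 UMIs in called cells, and 7 of these had their highest level in a leukocyte class of either library within the 11 classes, beside Ccr7, which lay almost wholly in the T- and NK-cell-like cluster. Cxcr2, the receptor of the ELR-CXC ligands, was highest in neutrophil-like cells, at 920 and 605 CPM, a log2 ratio of -0.61 (-0.77 to -0.43). Ccr2 was highest in monocyte-like cells, at 263 and 57.0, a log2 ratio of -2.20 (-2.70 to -1.74), and the ligands given above were lower in the same cells. Ccr1 was at 945 and 709 in neutrophil-like cells and at 535 and 192 in resident macrophage-like cells. Cx3cr1, the receptor of Cx3cl1 and a marker of kidney macrophages, had 38 and 2 UMIs in resident macrophage-like cells. Cxcr4 and Ccrl2 were higher with JPI-289 in resident macrophage-like cells, at 32.9 and 109 and at 316 and 697, with log2 ratios of 1.70 (0.95 to 2.58) and 1.14 (0.88 to 1.41), while Ccrl2 in neutrophil-like cells was at 1704 and 1898. Ackr3, a receptor that takes up Cxcl12, was at 51.2 and 5.06 in PT-like cells, a log2 ratio of -3.32 (-3.87 to -2.85), beside the lower Cxcl12 there, and at 32.0 and 57.8 in EC-like cells. Ackr4 had 41 and 17 UMIs in PT-like cells, and Ccr7 had 83 and 137 in the T- and NK-cell-like cluster, where 73 of the 83 came from 1 of 6 control cells and the 137 from 43 of 98 JPI-289 cells.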

How the data were processed

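Single cells from the kidney of 1 mouse per condition were prepared with the 10x Genomics 5′ chemistry, and the deposited files are raw matrices of UMI counts per gene and barcode, made by the authors with Cell Ranger 5.0.1 on mm10 per the labels. The counts were used as deposited. Barcodes were called as cells past a UMI cutoff (3338 for control and 2618 for JPI-289), or from 500 UMIs on when they differed from free RNA at a false discovery rate of 0.01 over 10000 simulated draws. Of 4303 and 5433 called barcodes, 543 and 394 with over 50% mitochondrial UMIs were removed. Cells were clustered in scanpy 1.11.5 (2000 variable genes without any ligand or receptor of the family, 30 components, 20 neighbours, Leiden resolution 1) and named from marker lists, where a mean score of at least 0.75 was needed and, under a score of 3, a marker of the list among the 10 leading genes. A doublet caller marked 0 and 2 cells and so did not work, and no doublets were removed. UMIs were summed per class and library, and log2 ratios were taken after adding 0.5 UMI to each sum. The way of computing ratios and intervals was tested on simulated counts. Shares of cells were also computed after thinning each cell to 1000 UMIs. With 1 library per condition no test was made, and intervals cover counting error only. A ligand was named with its values in a class if it had at least 20 UMIs there and was among the 8 with most UMIs, and over all called cells if it had at least 100. Receptors were named from 50 UMIs on, except 1 that is not reported here. Other ligands and classes given with values were chosen after their values were seen. The members, the groups and the marker lists were chosen with earlier results of these data known. Alternatives were another resolution, other cell filters, free RNA subtraction, equal weight per cell, other minimum counts and, chosen after seeing the data, leaving out single cells or clusters. Promoter sequences are from RefSeq (GRCm38.p6). No protein sequence was used here.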

Additional observations from a re-analysis of the deposited data

Results flagged for a closer look

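For 6 ligands the libraries differed in opposite directions in different classes of cells, each at least 2-fold apart with an interval of the log2 ratio (JPI-289 over control) that left out 0. Each condition was 1 library, so the difference between classes was not tested. Of all gene and class pairs, 9.24% were at least 2-fold higher and 14.8% lower. The share of all genes with opposite directions in different classes was not computed, so the count of 6 is no trait of the ligands. Cxcl2 was higher with JPI-289 in CD-PC-like (log2 ratio of 3.59) and stroma-like cells (2.78) and lower in EC-like cells (-1.09). All of these levels except the control EC-like one lay under the free RNA level of the library. The JPI-289 EC-like level was, however, above the 186 CPM of JPI-289 barcodes of under 500 UMIs. With the first calling step only, the CD-PC-like value was 0.47 and the EC-like one -0.89, both under 2-fold. Cxcl10 was higher in TAL-like (1.34) and DCT-CNT-like cells (2.23) and lower in EC-like cells (-1.23), and in the latter 2 classes 1 cell held most of the UMIs of the library in which it was higher. Ccl2 was lower in EC-like (-3.96), resident macrophage-like (-6.48) and monocyte-like cells (-1.63) and higher in neutrophil-like cells (1.64), on 3 and 40 UMIs. Ccl7 was lower in monocyte-like (-2.77) and resident macrophage-like cells, where the fitted value of -7.57 stands for 97 and 0 UMIs and is no bound, and higher in stroma-like cells (2.53), where 25 of 27 UMIs came from 1 cell. Ccl5 was higher in PT-like cells (1.69), on 10 and 30 UMIs, and lower in EC-like cells (-2.00), where 30 of 34 control UMIs came from 1 cell. Both PT-like levels of Ccl5 lay under the 3.72 and 9.29 CPM of control and JPI-289 barcodes of under 500 UMIs. Cxcl5 was higher in resident macrophage-like cells (3.95), where 21 of 22 UMIs came from 1 cell. It was lower in monocyte-like cells (-2.04), where the 17 control UMIs came from 2 cells.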

How the results depend on the processing

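No paired analysis was possible because each condition had 1 library. Of 554 values of 45 ligand and class pairs under the alternatives, 483 stayed within the counting interval of the reported value, 53 left it on the same side of 0 and 18 changed sign. All values are log2 ratios of JPI-289 over control unless said, and the cause of a change was not tested. The CCR2 ligand sum stayed below 0 under every alternative in all called, PT-like, EC-like, and macrophage- and monocyte-like cells, with -1.68 in all barcodes (all called cells -1.98), -1.51 in PT-like cells with 1 CPM added in place of 0.5 UMI, and -1.70 in macrophage- and monocyte-like cells with equal weight per cell. The ELR-CXC sum kept its sign under every alternative in the 5 sets of cells in which it was recomputed. The weighting by the control's class shares was not among these alternatives. With that weighting the ELR-CXC sum in all called cells changed sign, from 0.68 to -0.47. In all called cells (0.68) it was 0.82 in all barcodes, 0.71 without cells with leukocyte markers and 0.70 without the cell with most UMIs in each library. In PT-like cells (-1.51) it was -1.11 at resolution 0.5, -1.69 without the highest doublet scores, -2.43 with free RNA subtracted, -1.13 with equal weight, -0.68 without the control cluster of 236 cells and -1.11 with the unnamed cluster added. In EC-like cells (-1.47) it was, under the same doublet, free RNA and equal weight settings, -1.09, -2.11 and -1.75, then -1.06 without cells with leukocyte markers and -1.63 without the top cells. In neutrophil-like cells (-0.51) it was -0.35 with the first calling step only, -0.55 with free RNA subtracted and -0.44 with equal weight, and in macrophage- and monocyte-like cells (-0.28) it was -0.10 with equal weight. Pairs at least 2-fold higher numbered 2 with a minimum of 100 UMIs and 24 with one of 5, in place of 11, and those lower 26 with 100, in place of 46. The minimum also sets how many pairs enter, so these counts alone do not show whether the share of pairs changed. The shares of all gene and class pairs given above hold for the reported minimum only.

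Signs changed as follows. With the first calling step only, Ccl4 in neutrophil-like cells was 0.23 and Cxcl2 in resident macrophage-like cells 0.015. At resolution 0.5, Ccl25 in PT-like cells was 0.036 and, in stroma-like cells, Cxcl14 -0.0087 and Cxcl1 -0.48. Without the highest doublet scores, Cxcl2 in resident macrophage-like cells was 0.0077 and, in EC-like cells, Cxcl3 0.84, Ppbp 0.18 and Pf4 0.71. Without cells with leukocyte markers the last 3 were 1.09, 0.20 and 0.74. Without the top cells Pf4 in EC-like cells was 0.54 and Ccl4 in neutrophil-like cells 0.094. Ccl25 in PT-like cells was 0.20 without the control cluster and 0.022 with the unnamed one. Cxcl12 in stroma-like cells was 0.029 with free RNA subtracted, and Pf4 in resident macrophage-like cells 0.43 with equal weight per cell.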

Other observations

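Several ligands lay in classes too small to compare between the libraries. The urothelium-like cluster, with 15 control cells led by Psca and Krt5 and 3 JPI-289 cells, held 97 UMIs of Ppbp in 8 of the control cells. Platelet-like cells, 14 and 24 in number, had Pf4 at 12101 and 6455 CPM and Ppbp at 2808 and 598 CPM, above the monocyte-like level of Pf4 in both libraries. Ccl28, a ligand of epithelial linings, was found mainly outside called cells. It had 8 and 1 UMIs in called cells and 70 and 3 in barcodes of under 500 UMIs.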
